A study of Mus musculus with 24 samples.

Results

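The cells described here were Ccr2-expressing monocytes and young macrophages of Panc02 tumors, which are grown from a mouse pancreatic cancer line. They were chosen by their measured UMIs (unique molecular identifiers, 1 per captured transcript). A barcode had to hold at least 1000 UMIs with under 10% from mitochondrial genes, at least 3 UMIs summed over Ccr2, F13a1, Chil3, and Ly6c2, and at least 1 UMI each of Lyz2 and Csf1r. It also had to hold under 10 UMIs of C1qa, C1qb, and C1qc per 10000 and no UMI of Cd3d, Cd3e, Cd3g, Cd79a, or Siglech. Of 144994 barcodes, 120912 passed the limits on UMIs and mitochondrial share, and 494 of these (0.409%) met every condition and are called gated cells. The 15091 barcodes that met the same conditions on Lyz2, Csf1r, and lymphoid genes but held 10 or more C1q UMIs per 10000 are called C1q-high macrophages and served as the nearest population for comparison. Whatever their C1q level, 1812 barcodes that met these conditions held at least 3 UMIs of Ccr2, F13a1, Chil3, and Ly6c2. Of the 1812, 1318 were C1q-high macrophages, so the gated cells are only the C1q-low part.

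Monocytes that carry CCR2 leave the bone marrow along gradients of CCL2 and CCL7 and enter inflamed tissue and tumors. There they lose LY6C and turn into macrophages that make complement C1q and apolipoprotein E, or into cells that present antigen on MHC class II. In tumors they are known both as a source of antigen-presenting cells and, under the name monocytic myeloid-derived suppressor cells, as suppressors of T cells through arginase and nitric oxide synthase.

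Male wild-type C57BL/6 mice, 6 to 7 weeks old, carried Panc02 tumors under the skin. Each mouse was given the vaccine PancVAX or PBS, anti–PD-1 or its isotype control, and anti–CTLA-4 or its isotype control, which makes 8 treatments. PancVAX (50 µg of each neoantigen peptide, days 12 and 19) was mixed with the adjuvant AddaVax and a STING agonist, so that effects of the peptides and of the adjuvants cannot be told apart. Anti–PD-1 (100 µg) was given repeatedly from day 12 and anti–CTLA-4 (100 µg) on days 15 and 22, and tumors were taken on day 38. Each treatment had 1 library of whole dissociated tumor and 1 of cells enriched for immune cells on Percoll, in 2 sequencing batches that are the same as the preparations. Tumors of a treatment were pooled, and the sources do not say whether both libraries hold the same mice, so each treatment was taken as 1 pool for the comparisons of agents, of shares, and of cell classes, none of which measures the spread between mice. The edgeR fits of agents and classes have 4 residual degrees of freedom and take part of their spread from the other genes. The comparisons of 2 treatments or of the preparations were fitted over the 16 libraries, and their P values measure the spread between libraries, of which a treatment has 2, and not between replicate pools. A lower level in summed UMIs cannot tell fewer cells that express a gene from less RNA of it per cell.

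The 16 RNA libraries held 17 to 53 gated cells each, with 95154 to 489475 UMIs in them, and the median gated cell had 5532 UMIs, 1824 genes, and 2.25% mitochondrial UMIs. The median C1q-high macrophage had 7874 UMIs. Of 111955 barcode sequences that passed, 8502 passed in more than 1 library, and none of the 494 gated cells was a gated cell in a second library, although the barcode of 76 of them passed in another library, 5 times in the other library of its own treatment. No gated cell of the 240 in Percoll libraries had a T cell receptor contig, which allows a share of up to 1.25%, whereas 8006 of 62114 passing Percoll barcodes (12.9%) did. The gate had already left out cells with a UMI of Cd3d, Cd3e, or Cd3g, and the passing barcodes were not so filtered. The difference thus follows in part from the rule. No doublet caller was run.

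The 4 genes that opened the gate, given here as a description, were spread over the cells. Ccr2, the receptor for CCL2, had a UMI in 85.8% of gated cells, Ly6c2, which encodes the monocyte antigen LY6C, in 66.8%, Chil3, a chitinase-like protein, in 57.1%, and F13a1, a coagulation factor subunit, in 54.7%. All 4 were seen in 117 cells (23.7%), 3 in 160, 2 in 141, and 1 in 76. Per 10000 UMIs the gated cells held 4.32 Ccr2, 2.38 F13a1, 5.70 Chil3, and 7.01 Ly6c2 UMIs, against 0.441, 0.311, 0.0345, and 0.0925 in C1q-high macrophages. Lyz2 stood at 104 against 50.0 and Csf1r at 3.42 against 5.51, and 62.3% of gated cells held no C1q UMI. The 57 cells just inside the limit, with 3 UMIs of the 4 genes, had 45.6 Lyz2 UMIs per 10000, and the 63 cells just outside, with 2, had 25.2. The 12 gated cells with 8 to 10 C1q UMIs per 10000 had 3.07 Chil3 UMIs per 10000, and the 7 cells with 10 to 12 had 2.17.

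Markers that the gate did not use matched the name of recruited monocytes. Of 14 markers fixed for such cells, 12 were higher per 10000 UMIs than in C1q-high macrophages in each of the 8 pools, where 21.5% of the 2932 genes at 0.5 per 10000 or more were higher in this way and 17.4% lower. The cells and genes were chosen on the same UMIs, so these values are a description without a test. The 14 markers summed to 82.4 per 10000 in gated cells (64.7 to 94.6 by pool) and to 22.8 in C1q-high macrophages (21.1 to 27.5). Plac8, a marker of LY6C-high monocytes, stood at 23.9 against 3.09, Hp, which encodes the hemoglobin scavenger haptoglobin, at 2.51 against 0.0227, and Vcan, the matrix proteoglycan versican, at 1.03 against 0.0198. The markers that did not follow were Fcgr1, at 1.97 against 2.44, and Ly6a, at 3.38 against 3.45.

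Genes of mature macrophages lay on the other side. Of 14 maturation genes at 0.5 per 10000 or more, none was higher in each of the 8 pools and 12 were lower, where 17.4% of all genes were lower. The list summed to 44.2 per 10000 (30.3 to 54.3) against 177 (152 to 195). Apoe, the main lipid carrier of tissue macrophages, stood at 15.2 against 113, the tetraspanin Cd81 at 1.26 against 9.89, and Ms4a7, a marker of resident and tumor macrophages, at 0.549 against 7.81. MHC class II genes were lower in each pool for 7 of 9, with a sum of 238 (163 to 308) against 523 (481 to 566). Genes of lipid handling and lysosomes summed to 70.5 against 179, but Lgals3, which encodes galectin-3, was higher at 16.7 against 6.36.

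**Figure D1:**
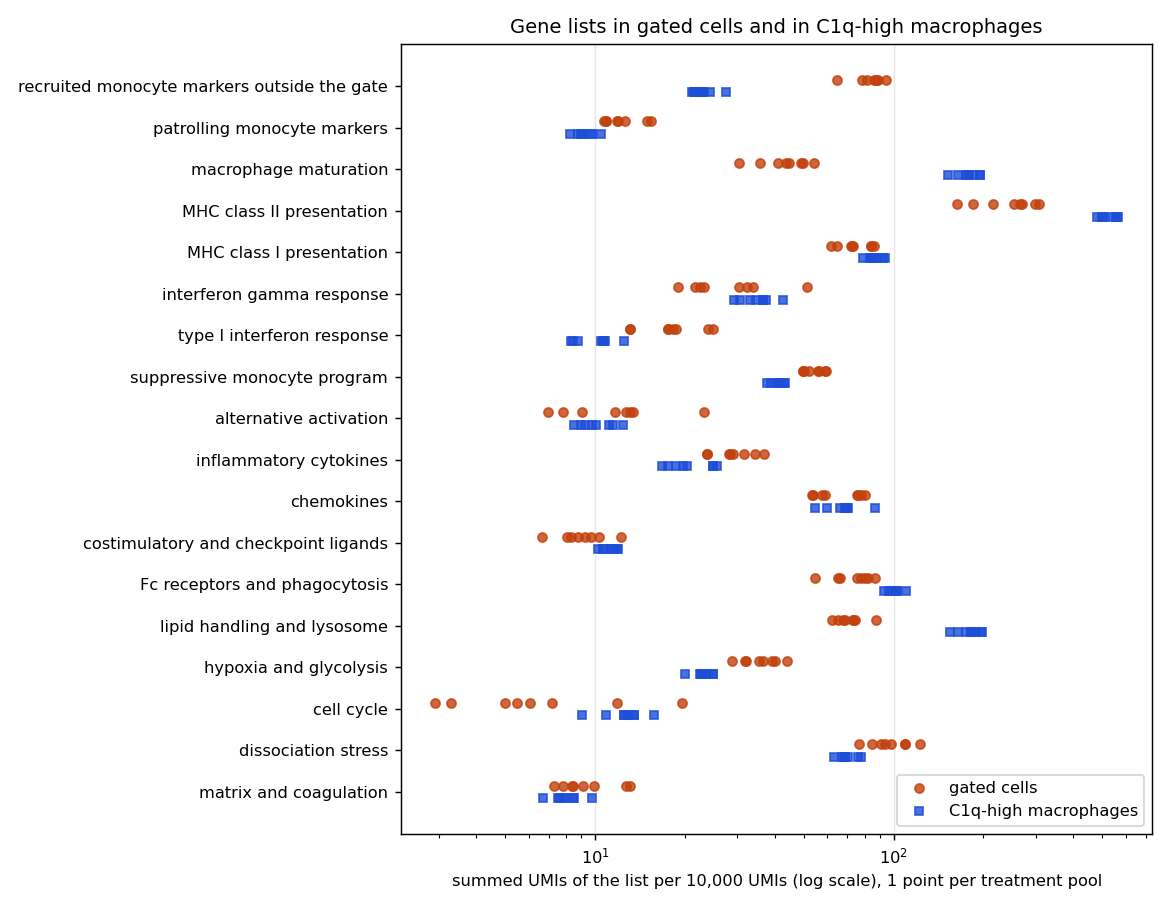
Summed UMIs of each gene list per 10000 UMIs (log scale) in gated cells (circles) and C1q-high macrophages (squares), 1 point per treatment pool. Recruited monocyte markers lie at 64.7 to 94.6 in gated cells and 21.1 to 27.5 in macrophages, while maturation genes lie at 30.3 to 54.3 and 152 to 195.

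Single chemokines went both ways between the populations. Of 15 at 0.5 per 10000 or more, 3 were higher and 4 lower in each of the 8 pools. Among all genes at that level, 21.5% were higher and 17.4% lower in this way. Per 10000 UMIs, gated cells held 16.2 Ccl6, 3.75 Ccl9, and 2.05 Cxcl3 UMIs against 3.65, 0.721, and 0.161 in C1q-high macrophages, and these ligands of myeloid cells were higher in each pool. Cxcl9, which draws CXCR3-positive T cells, stood at 1.96 against 10.3, Ccl8 at 0.112 against 9.88, and Cxcl16 at 1.40 against 5.57. Type I interferon response genes summed to 18.2 (13.1 to 24.9) against 9.93 (8.29 to 12.5), and 5 of 9 were higher in each pool, where 21.5% of all genes were. Rsad2, the antiviral protein viperin, stood at 1.54 against 0.389 and Irf7, the master factor of that response, at 2.42 against 0.975. Hypoxia and glycolysis genes summed to 36.5 against 23.2. Of 14 suppressive monocyte genes, 7 were higher and 2 lower in each pool, where 21.5% and 17.4% of all genes were. Cebpb, a factor needed for suppressor cells, stood at 21.6 against 9.71, while Wfdc17 and Cd84 were lower at 6.01 against 13.7 and 0.497 against 0.891. Arg1, which encodes arginase 1, stood at 2.73 against 0.455 and was higher in all pools but PancVAX, with 56.0 against 74.5 CPM. Nos2, the inducible nitric oxide synthase, had 8 UMIs in 4 gated cells.

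The gated cells also differed among themselves. The 330 cells with a Ly6c2 UMI had 182 MHC class II UMIs per 10000 and the 164 without had 349. Cells without Ly6c2 held 91.2 chemokine UMIs per 10000 against 54.5, and 18.1 of alternative activation genes against 8.25. Recruited monocyte markers stood at 63.4 in cells without Ly6c2 and at 91.9 in cells with it. Cells with and without a C1q UMI were closer, at 251 and 228 for MHC class II and at 41.9 and 46.0 for maturation genes. These subsets were cut on counts of the same cells and are given without a test.

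Of the 494 cells, 134 carried 2 or more UMIs of markers of another type and 360 (72.9%) did not. Dendritic cell markers reached 2 UMIs in 52 cells (10.5%), chiefly by Cd209a, a lectin of monocyte-derived and conventional dendritic cells, with 481 UMIs in 50 cells, while Xcr1 was at 0. These 52 cells held 0.311 Chil3 and 31.3 Lyz2 UMIs per 10000. Neutrophil markers reached 2 UMIs in 45 cells (9.11%), with Ly6g at 0, 1485 UMIs of S100a8 in 29 cells, and 287 of Retnlg in 3 cells. Tumor or epithelial markers reached 2 UMIs in 48 cells (9.72%) and fibroblast markers in 27 (5.47%), at a median of 24438 and 25778 UMIs per cell, so that the former held 32.5% of all gated UMIs. T cell markers reached 2 UMIs in 4 cells, B cell markers in 1, endothelial markers in 5, and NK, mast, and red blood cell markers in none.

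**Figure D2:**
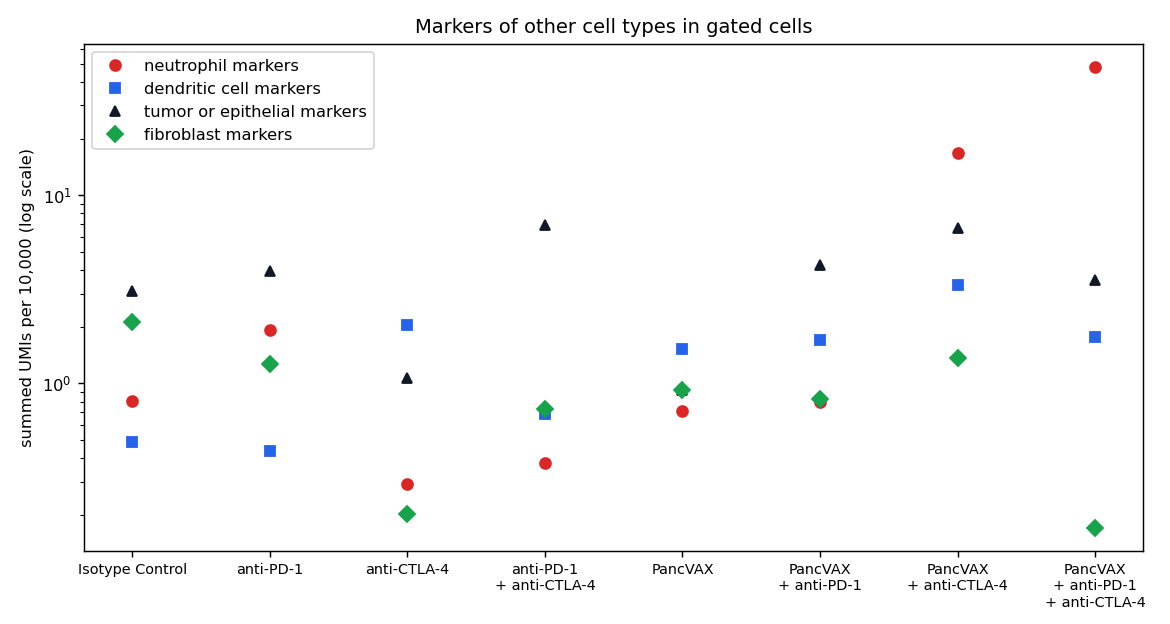
Summed UMIs of neutrophil, dendritic cell, tumor or epithelial, and fibroblast markers per 10000 UMIs of gated cells (log scale) in the 8 treatment pools. Neutrophil markers lie at 16.7 and 48.0 in PancVAX plus anti–CTLA-4 and PancVAX plus both antibodies and at 0.290 to 1.92 in the other 6 pools.

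The share of gated cells among passing barcodes describes how often the gate was met in each library. It depends on the UMIs per barcode and on the other cells captured, as well as on how many monocytes were present. By library it ran from 0.197% (95% Wilson interval 0.129 to 0.302) in the Percoll library of PancVAX plus anti–PD-1 to 0.676% (0.482 to 0.948) in that of isotype control, and intervals cover counting error only. Averaged over both preparations, the share was 0.612% in isotype control, 0.537% in anti–PD-1, 0.329% in anti–CTLA-4, and 0.353% with both antibodies. It was 0.438% in PancVAX, 0.222% in PancVAX plus anti–PD-1, 0.457% in PancVAX plus anti–CTLA-4, and 0.412% in PancVAX plus both. The groups with and without each agent overlapped.

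Each agent was compared over 4 pools with it and 4 without by an exact two-sided permutation test, whose smallest P is 0.0286 over 70 splits. The share was 0.382% ± 0.108 with PancVAX and 0.458% ± 0.139 without (SD, n = 4; exact permutation P = 0.429, adjusted 0.543). With and without anti–PD-1 it was 0.381% ± 0.131 and 0.459% ± 0.117 (SD, n = 4; exact permutation P = 0.371, adjusted 0.543). With and without anti–CTLA-4 it was 0.388% ± 0.0580 and 0.452% ± 0.169 (SD, n = 4; exact permutation P = 0.543, adjusted 0.543). None of the 3 tests passed the threshold. Within whole-tumor libraries the differences were -0.0482, -0.118, and -0.0749 percentage points for vaccine, anti–PD-1, and anti–CTLA-4, and within Percoll libraries they were -0.102, -0.0383, and -0.0542. With barcodes thinned to 2000 UMIs they were -0.0360, -0.0564, and -0.0499 in the same order. Among cells with a Ptprc UMI they were -0.321, -0.297, and -0.136. Among Lyz2 and Csf1r cells without lymphoid UMIs they were -0.219, -0.318, and -0.233.

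**Figure D3:**
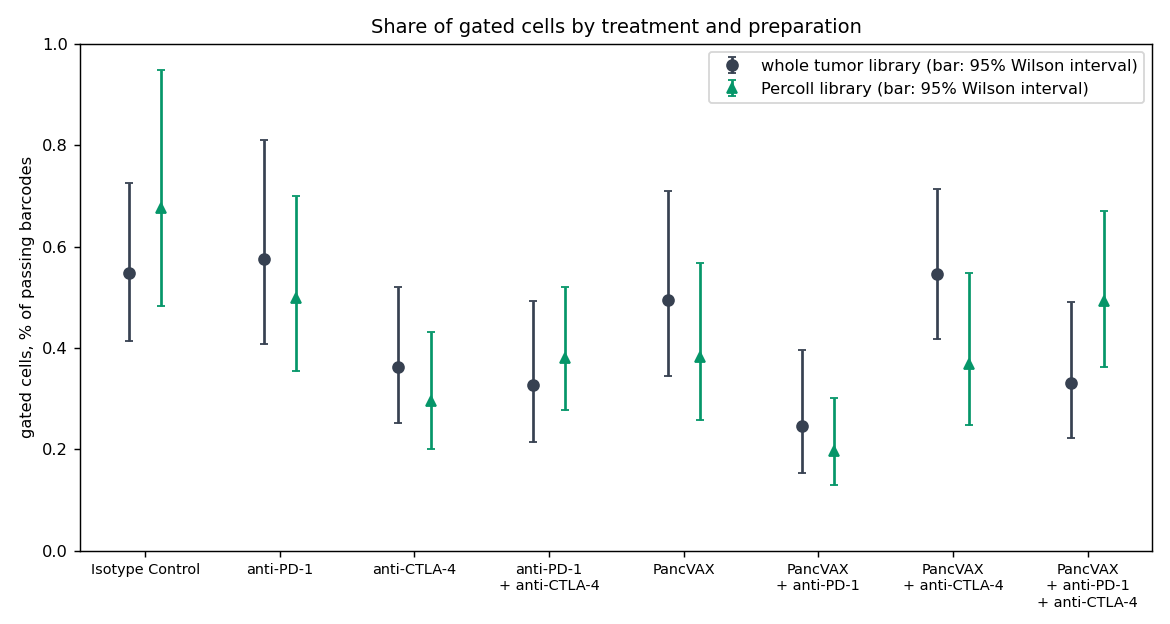
Gated cells as a percent of passing barcodes in each library, by treatment, for whole-tumor (circles) and Percoll (triangles) libraries with 95% Wilson intervals. PancVAX plus anti–PD-1 has the lowest share in both preparations, 0.247% and 0.197%.

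Anti–PD-1 went with higher levels of Cxcl2 and Cxcl3. UMIs of gated cells were summed by pool, and the 3 agents were fitted together by edgeR over 6307 genes, with a gene called at an adjusted P below 0.05 and an absolute log2 fold change above 0.5. For anti–PD-1, 4 genes were called (0.0634%), of which Cxcl3, Cxcl2, and Mt1 rose and Gm42418 fell, and DESeq2 called 6. Cxcl2 and Cxcl3 encode ligands of CXCR2 that attract neutrophils. Of the 15 chemokines tested, 9 were higher with anti–PD-1, where 49.9% of all genes were, and the median log2 fold change was 0.09. In CPM, UMIs of a gene scaled to a fixed total per pool, Cxcl2 stood at 648 in isotype control, 1171 in anti–CTLA-4, 1270 in PancVAX, and 1733 in PancVAX plus anti–CTLA-4. With anti–PD-1 it stood at 2445 alone, 3104 with anti–CTLA-4, 2182 with PancVAX, and 2781 with both. All 4 pools with anti–PD-1 lay above all 4 without it, and the log2 fold change was 1.20 (SE 0.18, adjusted P = 0.0367, edgeR with Benjamini-Hochberg). Levels by pool of a called gene are the values behind its call, so a lack of overlap is given as a description.

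Cxcl3 stood at 14.4 CPM in isotype control, 140 in anti–CTLA-4, 11.8 in PancVAX, and 133 in PancVAX plus anti–CTLA-4, and with anti–PD-1 at 194 alone, 470 with anti–CTLA-4, 209 with PancVAX, and 354 with both. The groups did not overlap, and the log2 fold change was 2.34 (SE 0.35, adjusted P = 0.0367, edgeR with Benjamini-Hochberg). Cxcl2 had a UMI in 126 of 228 cells with anti–PD-1 and in 124 of 266 without, and Cxcl3 in 36 and 15. The UMIs were concentrated, with 53.7% of those of Cxcl3 in 5 cells and 41.1% in cells without markers of another type. Without cells that carried neutrophil UMIs the log2 fold change of Cxcl3 was 2.43 (adjusted P = 0.462, edgeR with Benjamini-Hochberg) and that of Cxcl2 1.19 (adjusted P = 0.0507). Within whole-tumor libraries Cxcl2 changed by 1.22 and Cxcl3 by 3.57, and within Percoll libraries by 1.21 and 1.42, and no such value was called.

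The promoters of both chemokines are shown because these genes moved together. They run from 250 bases before to 50 after the transcription start in RefSeq on GRCm38.p6, at chr5:90903649-90903948 for Cxcl2 and chr5:90785851-90786150 for Cxcl3, both on the plus strand. Capitals mark GGG and TTTCC with any 2 bases between them, a form of the NF-kB motif, searched on both strands. They begin at -97 and -78 from the start of Cxcl2 and at -73 from that of Cxcl3. The letters were found in the promoters of 1.89% of 27025 genes and of 4 of 10 listed chemokines, and a match describes the sequence and is no evidence of binding.
Cxcl2: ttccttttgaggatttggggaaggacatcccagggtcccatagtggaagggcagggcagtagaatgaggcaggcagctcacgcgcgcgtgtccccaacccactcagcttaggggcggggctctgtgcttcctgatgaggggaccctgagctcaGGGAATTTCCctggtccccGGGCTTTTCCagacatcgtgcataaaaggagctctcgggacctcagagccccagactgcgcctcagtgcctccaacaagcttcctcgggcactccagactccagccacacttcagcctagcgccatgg
Cxcl3: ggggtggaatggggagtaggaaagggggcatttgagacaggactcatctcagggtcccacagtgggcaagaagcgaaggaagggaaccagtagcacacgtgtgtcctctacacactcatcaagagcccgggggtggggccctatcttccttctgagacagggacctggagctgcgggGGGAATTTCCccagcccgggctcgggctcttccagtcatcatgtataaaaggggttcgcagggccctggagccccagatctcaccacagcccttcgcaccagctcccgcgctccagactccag

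Mt1, which encodes the metal-binding protein metallothionein 1, was at 692 to 1102 CPM without anti–PD-1 and at 1419 to 2299 with it, a log2 fold change of 0.94 (SE 0.14, adjusted P = 0.0367, edgeR with Benjamini-Hochberg). The groups did not overlap, but 69.0% of Mt1 UMIs lay in cells with tumor or fibroblast markers. Without these cells the log2 fold change was 0.15, and it was -0.29 within whole-tumor libraries and 2.40 within Percoll libraries. Gm42418, a transcript that overlaps ribosomal RNA sequence, fell by 0.74 on the log2 scale (SE 0.09, adjusted P = 0.0191, edgeR with Benjamini-Hochberg), from 18741 to 24089 CPM without anti–PD-1 to 12232 to 14298 with it. Its log2 fold change was -0.36 without cells that carried tumor or fibroblast UMIs (adjusted P = 0.826, edgeR with Benjamini-Hochberg), -0.26 with at most 10000 UMIs and 3000 genes per cell (adjusted P = 0.852), -0.13 within whole-tumor libraries, and -1.09 within Percoll libraries. All 4 calls were lost without the anti–PD-1 pool (adjusted P = 0.145, edgeR with Benjamini-Hochberg), without the PancVAX plus anti–PD-1 pool (adjusted P from 0.162 to 0.269), with C1q under 5 per 10000 (0.0951), with a mitochondrial share under 5% (0.0859 to 0.0960), and in a fit of the 16 libraries with preparation as a covariate (0.491 to 0.612). Those of Cxcl2, Cxcl3, and Mt1 were also lost without the isotype control, the PancVAX, or the pool of both antibodies (adjusted P from 0.067 to 0.203, edgeR with Benjamini-Hochberg). Percoll libraries alone gave 189 calls and whole-tumor libraries alone gave 0. Tumor or epithelial markers ran from 3.53 to 6.98 per 10000 in pools with anti–PD-1 and from 0.922 to 6.70 without. Without cells that carried tumor or fibroblast UMIs, Cxcl2 (1.43, adjusted P = 0.00748, edgeR with Benjamini-Hochberg) and Cxcl3 (2.42, adjusted P = 0.0112) stayed called, and Mt1 and Gm42418 did not.

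Anti–CTLA-4 went with a higher level of Arg1. Arg1, an enzyme by which suppressive myeloid cells deplete arginine, was the 1 gene called of 6307 (0.0159%), and DESeq2 called 3. Without anti–CTLA-4 it stood at 84.6 CPM in isotype control, 209 in anti–PD-1, 56.0 in PancVAX, and 128 in PancVAX plus anti–PD-1. With the antibody it stood at 415 alone, 542 with anti–PD-1, 251 with PancVAX, and 371 with both. The pools with anti–CTLA-4 lay above all pools without it, and the log2 fold change was 1.80 (SE 0.19, adjusted P = 0.00447, edgeR with Benjamini-Hochberg). A Ly6c2 UMI was held by 59.4% to 62.3% of gated cells in pools with anti–CTLA-4 and by 54.7% to 81.5% in pools without. The part of this make-up in the level of Arg1 was not tested. Few cells carried the signal. Arg1 had a UMI in 38 of 257 cells with anti–CTLA-4 and in 20 of 237 without, 5 cells held 39.6% of its UMIs, and the highest cell of a pool held 32.5% to 97.6% of that pool's UMIs.

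The direction was the same within whole-tumor libraries, with a log2 fold change of 1.04 (adjusted P = 0.671, edgeR with Benjamini-Hochberg), and within Percoll libraries, with 2.74 (adjusted P = 1). Cells without markers of another type held 58.3% of Arg1 UMIs. Without cells that carried neutrophil UMIs, the log2 fold change was 1.08 (adjusted P = 0.46, edgeR with Benjamini-Hochberg). The call was also lost without the isotype control pool (1.64, adjusted P = 0.054, edgeR with Benjamini-Hochberg) and without the PancVAX pool (1.73, adjusted P = 0.0739). It was lost as well with at least 5 UMIs of the gate genes (2.24, adjusted P = 0.441, edgeR with Benjamini-Hochberg) and without all cells that carried other markers (1.30, adjusted P = 0.795). With each cell given equal weight, the log2 fold change was 1.58 (adjusted P = 0.000522, limma). For anti–PD-1 and PancVAX the log2 fold changes of Arg1 in the same 8 pools were 0.80 and -0.62, and neither was called.

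**Figure D4:**
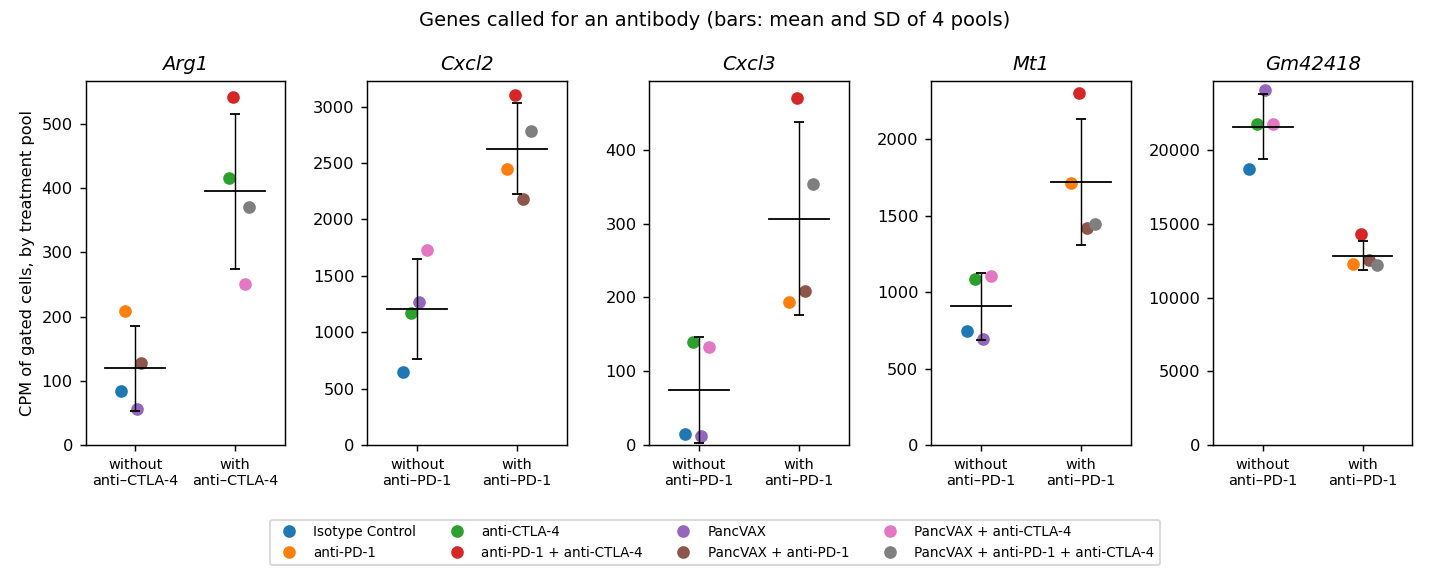
Level in CPM of the genes called for anti–CTLA-4 (Arg1) or anti–PD-1 (Cxcl2, Cxcl3, Mt1, Gm42418) in gated cells, 1 point per treatment pool, with the mean and SD of 4 pools. The pools with and without the antibody do not overlap for any of the 5 genes, for example 251 to 542 against 56.0 to 209 for Arg1. The genes were called on these same values, so the lack of overlap is a description and no further support.

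Genes of the interferon gamma response were lower as a list in pools with anti–CTLA-4. The list holds 25 genes, among them the guanylate-binding proteins and immunity-related GTPases that act on intracellular pathogens, and 21 were tested. All 21 were lower with anti–CTLA-4, where 48.4% of all genes tested were lower, and 13 had an unadjusted P below 0.05, against 3.81% of all genes. The median log2 fold change was -0.68, against 0.01 for all genes tested, and none of the 21 was called. Iigp1, a GTPase, stood at -1.65 (SE 0.45), Gbp4 at -1.29 (SE 0.37), Ifi47 at -0.94 (SE 0.22), Socs1, a feedback inhibitor of cytokine receptors, at -0.90 (SE 0.25), and Irgm1 at -0.89 (SE 0.22). Reads of the Gbp family can be shared between near-identical copies, so its single members are uncertain.

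Over the same 8 pools, 20 of the 21 were higher with anti–PD-1, where 49.9% of all genes were higher, and 8 had an unadjusted P below 0.05, against 3.81%. The median log2 fold change was 0.62 against 0.00 for all genes tested. Batf2, a transcription factor of interferon-stimulated macrophages, stood at 1.35 (SE 0.42), Gbp2 at 1.13 (SE 0.29), and Cxcl9 at 0.96 (SE 0.50). None was called. Gbp2 ran through 236, 146, 292, and 293 CPM in isotype control, anti–CTLA-4, PancVAX, and PancVAX plus anti–CTLA-4, and through 912, 261, 443, and 527 in the matching pools with anti–PD-1 added. The pool of both antibodies overlapped the pools without anti–PD-1.

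By pool, the whole list summed to 18.9 per 10000 in anti–CTLA-4, 21.6 in PancVAX plus anti–CTLA-4, 22.5 in isotype control, and 23.1 with both antibodies. It summed to 30.3 in PancVAX plus both, 32.4 in PancVAX, 33.7 in PancVAX plus anti–PD-1, and 51.3 in anti–PD-1. These sums overlapped between pools with and without either antibody. Leaving out 1 pool moved the median for anti–CTLA-4 between -0.97 and -0.47, and the median for anti–PD-1 between 0.41 and 0.80. With the 134 cells that carried other markers left out, 17 of 19 tested genes were lower with anti–CTLA-4 (median -0.36) and 13 of 19 were higher with anti–PD-1 (median 0.17). Within Percoll and whole-tumor libraries the medians were -0.37 and -0.92 for anti–CTLA-4 and 0.39 and 0.42 for anti–PD-1.

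**Figure D5:**
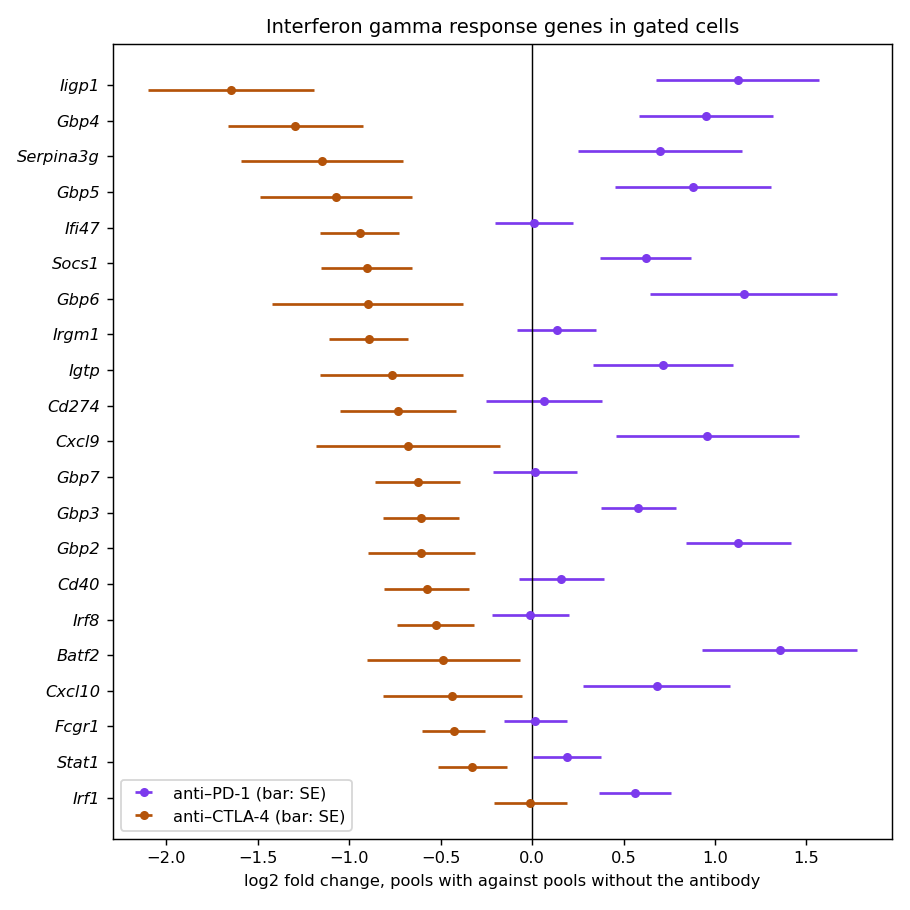
Log2 fold change with its SE for the 21 tested interferon gamma response genes in gated cells, for anti–PD-1 and anti–CTLA-4 fitted over the same 8 pools. All 21 values lie under 0 for anti–CTLA-4 and 20 lie above 0 for anti–PD-1, and none was called.

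Interferon-regulated genes are known by short motifs near their start, and the promoters of Irgm1, Socs1, and Gbp2 are shown as ones that hold a match. They lie at chr11:48871371-48871670 (Irgm1, minus strand), chr16:10785487-10785786 (Socs1, minus strand), and chr3:142620413-142620712 (Gbp2, plus strand) of GRCm38.p6, from RefSeq. Capitals mark TTTC and TTTC with any 2 bases between them on either strand, a form of the interferon-stimulated response element. Irgm1 holds 2 overlapping matches, which begin at -30 and -24, Socs1 holds 2 at -83 and -77, and Gbp2 holds 1 at -59. These letters were found in the promoters of 3.99% of 27025 genes and of 9 of the 16 list genes that the table holds. The letters TTCNNNGAA of the gamma-activated site, which can overlap the former, were found in the promoters of 9.55% of genes and of 8 of the 16 genes, but not in these 3. The promoters of Ifi47 and Cxcl9, which are also named above, held neither motif.
Irgm1: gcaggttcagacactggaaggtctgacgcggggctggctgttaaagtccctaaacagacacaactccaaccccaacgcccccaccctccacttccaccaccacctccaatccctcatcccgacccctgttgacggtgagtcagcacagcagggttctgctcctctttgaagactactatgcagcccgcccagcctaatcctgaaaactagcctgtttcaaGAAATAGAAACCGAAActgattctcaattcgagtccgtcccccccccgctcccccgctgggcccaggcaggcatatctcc
Socs1: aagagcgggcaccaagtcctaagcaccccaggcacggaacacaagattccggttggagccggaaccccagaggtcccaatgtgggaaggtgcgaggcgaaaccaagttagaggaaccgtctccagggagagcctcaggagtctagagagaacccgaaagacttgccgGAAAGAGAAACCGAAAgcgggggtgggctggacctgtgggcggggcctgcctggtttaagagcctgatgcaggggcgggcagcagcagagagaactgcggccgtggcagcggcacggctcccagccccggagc
Gbp2: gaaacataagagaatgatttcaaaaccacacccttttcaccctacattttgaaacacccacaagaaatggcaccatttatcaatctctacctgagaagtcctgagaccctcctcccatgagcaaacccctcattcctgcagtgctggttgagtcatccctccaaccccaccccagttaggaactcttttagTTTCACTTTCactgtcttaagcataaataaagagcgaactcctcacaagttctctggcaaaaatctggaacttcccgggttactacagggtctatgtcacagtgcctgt

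Type I interferon response genes also lay lower with anti–CTLA-4, with 16 of 17 tested genes lower, where 48.4% of all genes were lower, 5 at an unadjusted P below 0.05, against 3.81%, and a median of -0.43. Ifit3, an antiviral protein, stood at -0.96 (SE 0.36) and Isg15, a ubiquitin-like modifier, at -0.44 (SE 0.19). Within Percoll libraries the median was 0.04 and within whole-tumor libraries -0.86. With anti–PD-1 the median was -0.17, and 3 of 17 were higher, where 49.9% of all genes were. Of the recruited monocyte markers, 12 of 14 lay lower with anti–CTLA-4, where 48.4% of all genes did, with Vcan at -0.98 (SE 0.26) and Ms4a4c at -0.52 (SE 0.16). The median of these markers was -0.29, and -0.03 and -0.57 within Percoll and whole-tumor libraries.

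Hypoxia and glycolysis genes lay higher with anti–PD-1 for 12 of 13 tested, where 49.9% of all genes were higher, and 5 had an unadjusted P below 0.05, against 3.81%. The median was 0.34, and 0.54 and 0.18 within Percoll and whole-tumor libraries. Tumor or epithelial markers ran from 3.53 to 6.98 per 10000 with anti–PD-1 and from 0.922 to 6.70 without, and without cells that carried tumor or fibroblast UMIs 11 of 13 were higher, with a median of 0.29. Ero1l, an oxidase of the endoplasmic reticulum, stood at 1.11 (SE 0.29) and Ldha, lactate dehydrogenase A, at 0.37 (SE 0.11). Cell cycle genes lay higher with anti–CTLA-4 for 10 of 10 tested, where 51.6% of all genes were higher, and 5 had an unadjusted P below 0.05, against 3.77% of all genes. Their median was 1.33, and without the pool of both antibodies 0.50, and 71.6% of their UMIs lay in cells with tumor or fibroblast markers. With all cells that carried other markers left out, 2 of these genes were tested, with a median of 0.15.

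PancVAX gave no call over the 8 pools (0%) by edgeR, with 362 genes at an unadjusted P below 0.05, and DESeq2 called 3. Without the anti–CTLA-4 pool edgeR called 20. MHC class II genes lay higher with PancVAX for 9 of 10, where 49.1% of all genes were higher, and 5 had an unadjusted P below 0.05, against 3.31% of all genes. The median was 0.37 against -0.01 for all genes tested, between 0.17 and 0.62 with 1 pool left out. Over the same pools, 1 of the 10 lay higher with anti–PD-1 (median -0.25), where 49.9% of all genes did. Within Percoll and whole-tumor libraries the median for PancVAX was 0.27 and 0.72, and that for anti–PD-1 was -0.73 and 0.35, which differ in sign. H2-Eb1, a class II beta chain, stood at 1984 CPM in isotype control, 1587 in anti–PD-1, 2996 in anti–CTLA-4, and 1681 with both antibodies, and with PancVAX at 3326 alone, 2794 with anti–PD-1, 2735 with anti–CTLA-4, and 3655 with both. Only the anti–CTLA-4 pool without vaccine reached the range of the pools with PancVAX, and the log2 fold change was 0.66 (SE 0.16). Cd74, the class II chaperone, stood at 0.44 (SE 0.13). Dendritic cell markers ran from 1.52 to 3.33 per 10000 in pools with PancVAX and from 0.438 to 2.03 without, and without cells that carried other markers the median of the class II genes was 0.38, with 7 of 9 higher.

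Chemokines lay lower with PancVAX for 12 of 15 tested, where 50.9% of all genes were lower, and 4 had an unadjusted P below 0.05, against 2.43%. These were the CC chemokines Ccl7, Ccl3, Ccl4, and Ccl2. The median was -0.23, and within Percoll and whole-tumor libraries 0.05 and -0.38. Ccl7, a ligand of CCR2, stood at 205 to 329 CPM in pools without PancVAX and at 37.4 to 115 with it. The groups did not overlap, and the log2 fold change was -1.54 (SE 0.26, adjusted P = 0.242, edgeR with Benjamini-Hochberg). Ccl7 had a UMI in 31 of 232 gated cells with PancVAX and in 36 of 262 without, and 5 cells held 34.4% of its UMIs. Ccl2, the main ligand of CCR2, ran from 396 to 559 CPM without PancVAX and from 163 to 476 with it, which overlap. Of 15 maturation genes tested, 10 lay lower with PancVAX, where 50.9% of all genes were lower, 4 of them at an unadjusted P below 0.05, and 5 lay higher, 1 of them at such a P (Gpnmb, 1.82, SE 0.69). The median of this list was -0.32, and 0.13 and -0.41 within Percoll and whole-tumor libraries, which differ in sign. Ms4a7 stood at -1.10 (SE 0.34), Spp1, which encodes osteopontin, at -1.32 (SE 0.40), and Apoe at -0.54 (SE 0.20). The value of Spp1 was -0.68 without isotype control and -1.70 without anti–CTLA-4. Spp1 was at 1685 CPM in isotype control and at 287 to 1267 in the other 7 pools, with 46.9% of its UMIs in 5 cells and 76.4% in cells with tumor or fibroblast markers.

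Over libraries, PancVAX against isotype control gave no call among 3889 genes (0%) by edgeR, with 100 at an unadjusted P below 0.05, and DESeq2 called 1. PancVAX plus both antibodies against PancVAX gave no call (0%) by edgeR, with 178 at an unadjusted P below 0.05, and DESeq2 called 2. Cd274, which encodes PD-L1, stood at 46.8 CPM in isotype control, 147 in PancVAX, and 64.8 in PancVAX plus both antibodies, with log2 fold changes of 1.74 (SE 0.56) and -1.30 (SE 0.55) in the pair fits, neither called. Cd86, a costimulatory ligand, stood at 84.6, 118, and 106 CPM in these pools. Il1b, the inflammasome cytokine, ran from 1939 to 3197 CPM over the 8 pools, and none of the 3 agents moved it by more than its SE. Nos2 was at 0 in 6 pools and at 9.34 and 3.93 CPM with both antibodies without and with PancVAX.

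The response to PancVAX was then compared between gated cells and C1q-high macrophages of the same pools. Of 13185 genes, 49 were called in this difference (0.372%), 30 higher and 19 lower in gated cells, by edgeR with pool as a block. DESeq2 called 2. With limma on the difference within each pool, 0 of 6307 were called, with 290 at an unadjusted P below 0.05. Its spread is that of the differences between pools, with part of it taken from the other genes. The edgeR count rose to 99 without PancVAX plus anti–CTLA-4 and to 91 without anti–CTLA-4, and dropped to 31 without isotype control or PancVAX plus anti–PD-1. Among called genes at a mean of 50 CPM or more, the largest differences were those of S100a8 (4.68, SE 0.43) and S100a9 (4.63, SE 0.47), alarmins of neutrophils and monocytes. S100a8 stood at 722 and 1934 CPM in PancVAX plus anti–CTLA-4 and PancVAX plus both antibodies and at 2.99 to 33.4 in the other 6 pools, and 93.0% of its UMIs lay in 5 cells. Without cells that carried neutrophil UMIs the difference for S100a8 was -0.63, but S100a8 and S100a9 are among the markers by which these cells were left out, so that the loss follows from the choice of cells. With all cells, the difference for S100a8 ran from 2.37 without the pool of both antibodies to 7.03 without the anti–PD-1 pool, and that of S100a9 from 1.86 to 10.7 without the same pools.

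Of 15 chemokines tested, 5 were called, all lower, against 0.372% of all genes, and with PancVAX each changed less upward or more downward in gated cells than in C1q-high macrophages. They were Ccl7 (-2.10, SE 0.21), Cxcl1 (-1.75, SE 0.29), Ccl4 (-1.08, SE 0.17), Ccl3 (-1.02, SE 0.19), and Ccl2 (-0.91, SE 0.18). Cxcl1 had a UMI in only 2 to 8 gated cells of each pool. Without PancVAX plus anti–CTLA-4 the values were -0.54 for Ccl4, -0.51 for Ccl3, and -0.45 for Ccl2, and without the pool of both antibodies -1.002 for Cxcl1. In C1q-high macrophages Ccl7 ran from 228 to 548 CPM with PancVAX and from 202 to 248 without, which overlap, while the ranges in gated cells were apart. Without cells that carried other markers the difference for Ccl7 was -1.57, and for H2-Eb1 0.51. Pf4, a platelet-type chemokine that macrophages also make, stood at -2.19 (SE 0.19). In gated cells it ran from 15.6 to 280 CPM with PancVAX and from 122 to 693 without, which overlap. The top 5 gated cells held 39.6% of its UMIs. Ms4a7, Spp1, and Apoe of the maturation list stood at -1.11, -0.84, and -0.57. Spp1 was at -0.45 without isotype control and at -1.39 without anti–CTLA-4, and 76.4% of its UMIs in gated cells lay in cells with tumor or fibroblast markers. H2-Eb1 was higher by 0.64 (SE 0.11), with 2735 to 3655 CPM with PancVAX and 1587 to 2996 without in gated cells, and 6244 to 7268 and 6316 to 7358 in C1q-high macrophages. Mgl2, a lectin of monocyte-derived cells, was higher by 1.55 (SE 0.33), Il1r2, the decoy receptor for interleukin 1, by 0.99 (SE 0.20), Ly6a by 0.90 (SE 0.17), and the metalloproteinases Mmp9 and Mmp12 by 2.28 and 1.38. Mmp9 is also on the neutrophil list, with 63 UMIs in 14 gated cells, and its level of 0.164 UMIs per 10000 in gated cells was 0.00511 in those without other markers. As Mmp9 is among the markers that chose the cells left out, this drop follows from the choice of cells. Mmp12 had a UMI in only 2 to 6 gated cells of each pool. Its highest level, 179 CPM in PancVAX plus both antibodies, came from 91 UMIs in 3 cells. The value of Mgl2 ran from 0.70 without PancVAX plus anti–PD-1 to 3.14 without anti–CTLA-4 and was 0.31 without cells that carried other markers, and that of Ly6a was 0.56 without the pool of both antibodies. With any 1 pool left out, Ccl7, Pf4, H2-Eb1, and S100a8 stayed called, whereas S100a9 and each other gene named for this comparison lost its call without at least 1 of the pools.

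Gene levels differed between the preparations, which are also the sequencing batches. With treatment in the fit, 6 of 3889 genes were called (0.154%), 4 higher and 2 lower in Percoll libraries, and DESeq2 called 29. Slpi, a protease inhibitor, rose by 1.81 (SE 0.27), Gadd45g, a stress-response gene, by 1.70 (SE 0.24), and Il1r2 by 1.54 (SE 0.25). Slpi and Gadd45g were higher in the Percoll library of all 8 treatments and Il1r2 in 7 of 8. Of the neutrophil markers, 5 of 5 tested lay higher in Percoll libraries (median 0.79, none at an unadjusted P below 0.05), where 1812 of the 3889 genes did. The 1 dendritic cell marker tested also lay higher (1.46, at such a P). Cells with neutrophil or dendritic markers held 31.0% and 28.1% of the UMIs of Il1r2. The values were 1.75 for Slpi, 1.88 for Gadd45g, and 1.63 for Il1r2 once cells that carried markers of other types were left out. Gadd45g ran from 77.9 to 190 CPM in Percoll and from 13.1 to 80.1 in whole-tumor libraries. Mpp7, a scaffold protein gene, was lower by -1.23 (SE 0.21) and in each of the 8 treatments, and the other gene that fell, named after its values were seen, was Clec2d (-1.53, SE 0.23), a ligand of NK cell receptors. The difference of the PancVAX effect between preparations gave no call among 3480 genes (0%) by edgeR, with 135 at an unadjusted P below 0.05, and DESeq2 called 1.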

How the data were processed

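Per the labels and the paper, cells of pooled Panc02 tumors were run on a 10x Genomics Chromium 5′ kit, and Cell Ranger 4.0.0 was used by the authors to align reads and count UMIs. The submitters' processing notes name mm10 as the build. The deposited counts are raw UMI counts of 32285 genes in 144994 barcodes, and the number that ends a barcode was matched to its library through the sample labels. T cell receptor contigs served only to count cells with a contig.

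The gate was applied to the counts, without clustering. UMIs of gated cells were summed by treatment (8 pools) or by library (16) and tested in R 4.3.3 with edgeR 4.0.16 (quasi-likelihood, TMM factors, filterByExpr), gate genes left out. The agents were fitted together over pools, treatments were compared over libraries with preparation as a covariate, and the class comparison had the pool as a block. P values are two-sided and Benjamini-Hochberg adjusted over all genes tested. CPM are computed here from these sums, and levels per 10000 are UMIs of a gene over all UMIs of the cells. Scripts were tested on simulated data. Named genes were up to 8 rises and 8 falls per comparison among called genes at a mean of 50 CPM or more, called genes of the fixed lists, and a fixed set (Cxcl9, Nos2, Arg1, H2-Ab1, Cd274, Cd86, Spp1, Il1b, and Ly6a). Some genes that the rule names are not reported here. List members are described by their counts and median. The cells and gene lists were chosen with earlier results of these data known. Alternatives were DESeq2 1.42.0, limma 3.58.1 on cells of equal weight or on differences within pools, no filter on low counts, other gates, at most 10000 UMIs and 3000 genes per cell, removal of cells with 2 or more UMIs of other types, single preparations, and pools left out. Promoter sequences come from a RefSeq table (GRCm38.p6), in which 16 of 25 interferon gamma response genes and 10 of 16 chemokines were found.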

Additional observations from a re-analysis of the deposited data

Results flagged for a closer look

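Single pools that lay far from the other 3 of their group were marked by Dixon's test in 8 of 108 groups of 4 pools, where chance marks about 1 in 20. Gm42418 was at 14298 CPM with both antibodies against 12232 to 12540 in the other pools with anti–PD-1. Il1r2 was at 186 CPM in PancVAX against 440 to 480 in the other pools with vaccine. Cd274 was at 85.5 CPM in anti–PD-1 against 44.8 to 49.8 in the other pools without PancVAX, and at 147 in PancVAX against 44.2 to 46.8 in the other pools without anti–PD-1. In the pool of both antibodies, Cd86 was at 52.9 CPM against 94.5 to 106 in the other pools with anti–CTLA-4, and Ly6a was at 120 against 505 to 554 in the other pools with anti–PD-1. Nos2 was at 3.93 CPM in PancVAX plus both antibodies and at 9.34 with both antibodies, against 0 in the pools they were compared with, and these values rest on 2 and 6 UMIs.

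The change with PancVAX differed between gated cells and C1q-high macrophages for 49 genes by the edgeR interaction test, and for none by limma on the difference within each pool. Values are the log2 change in gated cells minus that in C1q-high macrophages. Higher in gated cells were S100a8 (4.68), S100a9 (4.63), Mmp9 (2.28, also a neutrophil marker), Mgl2 (1.55), Mmp12 (1.38), Sparc (1.24), Mgp (1.09), Il1r2 (0.99), Ly6a (0.90), and H2-Eb1 (0.64). Lower were Gdf15 (-2.27), Pf4 (-2.19), Ccl7 (-2.10), Cxcl1 (-1.75), Top2a (-1.32), Slpi (-1.31), Ms4a7 (-1.11), Ccl4 (-1.08), Ccl3 (-1.02), Ccl2 (-0.91), Fabp5 (-0.84), Spp1 (-0.84), and Apoe (-0.57). With 1 pool left out, the value ran from 0.47 without PancVAX to 2.07 without the pool of both antibodies for Sparc, from 0.32 without the pool of both antibodies to 1.59 without anti–CTLA-4 for Mgp, from -2.32 without anti–CTLA-4 to -0.49 without the pool of both antibodies for Top2a, and from -1.19 without the pool of both antibodies to -0.39 without anti–CTLA-4 for Fabp5. S100a8 and S100a9 had 99.1% and 99.8% of their UMIs in cells with neutrophil markers, a list that holds both genes, so that the share is fixed by the choice of cells. Without cells that carried markers of another type the direction turned for Sparc (-1.30), Mgp (-1.57), and Top2a (0.78).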

How the results depend on the processing

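The shares of gated cells kept their direction under every alternative run. With 1 pool left out, the difference ranged from -0.118 to -0.0218 percentage points for PancVAX, from -0.130 to -0.0252 for anti–PD-1, and from -0.141 to -0.0113 for anti–CTLA-4. Counts of called genes moved more, and the cause was not tested. DESeq2 gave 3 for PancVAX, 3 for anti–CTLA-4, 1 and 2 for the pairs (PancVAX against isotype control, then PancVAX plus both antibodies against PancVAX), 29 for Percoll against whole tumor, 2 for the difference between cell classes, and 1 for that between preparations. With no filter on low counts, edgeR gave 72 for PancVAX, 110 for anti–PD-1, 97 for anti–CTLA-4, 22 and 68 for the pairs, 67 for Percoll, and 37 between preparations. At most 10000 UMIs and 3000 genes per cell gave 8 for anti–CTLA-4, 1 and 6 for the pairs, 74 for Percoll, and 19 between classes. At least 5 UMIs of the gate genes gave 2 for anti–PD-1, 0 for anti–CTLA-4, and 1 for the second pair. C1q under 5 per 10000 gave 0 for anti–PD-1, 2 for anti–CTLA-4, and 3 for Percoll, and a mitochondrial share under 5% gave 0 for anti–PD-1 and 3 for Percoll. Leaving out cells with UMIs of other types gave 3 for PancVAX, 1 for anti–PD-1, and 0 for anti–CTLA-4, 1 and 1 for the pairs, 55 for Percoll, and 16 between classes.

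The following were chosen after seeing the data. Leaving out only cells with neutrophil UMIs gave 1, 1, and 0 for the 3 agents in the order used above, only those with tumor or fibroblast UMIs gave 2, 2, and 4 and for the second pair 5, and only those with dendritic UMIs gave 1, 2, and 2, and 30 between classes. Cells of equal weight in limma gave 2 for PancVAX and 4 for anti–CTLA-4, and limma within pools gave 0 between classes. Of the other alternatives, the 16 libraries gave 0 for anti–PD-1, Percoll libraries alone 189, and whole-tumor libraries alone 0, and whole-tumor libraries gave 1 for PancVAX. Only the 4 libraries compared gave 2 and 86 for the pairs. With 1 pool left out, the count ranged from 0 to 20 for PancVAX (20 without anti–CTLA-4), 0 to 10 for anti–PD-1, 0 to 23 for anti–CTLA-4 (23 without the anti–CTLA-4 pool), and 31 to 99 between classes (99 without PancVAX plus anti–CTLA-4). With 1 library of a pair left out, the count ranged from 0 to 1 for either pair. Leaving out samples was not run for Percoll against whole tumor.

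Without the replicate block of preparation, both antibodies added to PancVAX gave 1 call, and without that of treatment, Percoll against whole tumor gave 12. Directions turned for Mt1 with anti–PD-1 in whole-tumor libraries (-0.29). Between classes they turned with at most 10000 UMIs for Sparc (-0.60) and Top2a (0.54), and without cells of other types for Sparc (-1.30), Top2a (0.78), S100a8 (-0.58), S100a9 (-0.18), and Mgp (-1.57). They also turned without tumor or fibroblast UMIs for Sparc (-0.71), Top2a (0.88), and Mgp (-1.64), and without neutrophil UMIs for S100a8 (-0.63), which, like S100a9, is among the markers that chose the cells left out. Libraries held 17 to 53 gated cells, and each treatment had 1 pool.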

Other observations

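Genes of alternative activation lay higher with PancVAX for 6 of 8 tested, where 49.1% of all genes were higher, with a median log2 fold change of 0.59, and none was called. Dendritic cell markers ran from 1.52 to 3.33 per 10000 with PancVAX and from 0.438 to 2.03 without, and their part in these values was not tested. Mgl2, a lectin of monocyte-derived cells, ran through 12.6, 8.34, 170, and 15.6 CPM in isotype control, anti–PD-1, anti–CTLA-4, and both antibodies, and through 32.4, 246, 200, and 102 with PancVAX added, and its level over all pools was 0.913 per 10000 in gated cells and 0.455 in those without markers of another type. Retnla, a secreted protein of alternatively activated macrophages, was at 1028 CPM in anti–CTLA-4 and 352 in PancVAX plus anti–PD-1 and at 0 to 10.8 in the other 6 pools, with 99.1% of its UMIs in 5 cells. MHC class I genes lay higher with PancVAX for 13 of 14 tested (median 0.16), and none reached an unadjusted P below 0.05.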
